A study of Mus musculus with 3 samples.

Results

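Dermal papilla-like cells of mouse back skin were described here after deletion of Piezo1, a mechanically gated cation channel, in the epithelium that surrounds them. They were chosen by a gate on unique molecular identifiers (UMIs), the counted transcripts of each cell: at least 500 genes, less than 15% mitochondrial UMIs, Krt5 and Krt14 together below 0.3% of UMIs, no UMI of Ptprc or Pecam1, and a UMI of at least 3 of the 7 genes Crabp1, Slc26a7, Inhba, Dkk2, Spon1, Notum and Pappa2. The gate found 1854 of the 24884 cells that passed the gene and mitochondrial filters: 468 of 9869 in the 2-week knockout, 932 of 9993 in the 3-week knockout and 454 of 5022 in the control. Both knockout libraries came from C57BL/6 back skin with the K5-Cre-er driver, which acts in cells using the keratin 5 promoter, and with 2 floxed Piezo1 alleles. The 2-week knockout (K5-Cre-er/Piezo1fl/fl/Tdfl/+) was taken at postnatal day 62 and the 3-week knockout (K5-Cre-er/Piezo1fl/fl/Tdfl/fl) at postnatal day 71. The control (K5-Cre-er/Piezo1fl/+/Tdfl/+) was taken at postnatal day 62 and carried the driver and 1 floxed Piezo1 allele too. All 3 groups had tamoxifen, the drug that activates the Cre, from postnatal day 48 to 52. Each group is 1 library, the number of mice behind it is not given, and the 3-week knockout has no control of its own age, so time, age and the second floxed Td allele cannot be told apart. No difference between groups has a replicate check and none was tested. Intervals are 95% intervals that cover counting error only.

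The dermal papilla is the knot of specialised fibroblasts at the base of the hair follicle. It signals to the overlying epithelium through Wnt, BMP, activin and FGF ligands and their secreted inhibitors, and it governs when the follicle rests and when it regrows. Its cells are known for little fibrillar collagen and for a matrix rich in basement membrane components.

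The 7 gate genes chose the cells, so their levels are a description. On the mm10 genome (GENCODE M21 annotation) Crabp1 lies on chromosome 9 from 54764748 to 54773110, Slc26a7 on chromosome 4 from 14502430 to 14621805 and Inhba on chromosome 13 from 16011851 to 16031621. Dkk2 lies on chromosome 3 from 132085292 to 132180304 and Spon1 on chromosome 7 from 113765998 to 114043370. Notum lies on chromosome 11 from 120653788 to 120661175 and Pappa2 on chromosome 1 from 158711727 to 158980490. The number of these genes with a UMI had 2 peaks among the non-epithelial, Ptprc-negative and Pecam1-negative cells. No gate gene had a UMI in 1439, 1908 and 910 cells of the 2-week knockout, the 3-week knockout and the control, and 6 or 7 had one in 270, 466 and 263 cells of the same libraries. Just inside the threshold, with exactly 3 genes, stood 26 cells in the 2-week knockout, 88 in the 3-week knockout and 52 in the control, and just outside it, with exactly 2, stood 54, 127 and 90 cells in the same order of libraries. The level of Col1a1, a collagen of ordinary dermal fibroblasts, is given in CPM, its UMIs per 1000000 UMIs of the cells. Cells just inside had 5050 CPM in the 2-week knockout, 4810 in the 3-week knockout and 18071 in the control. Cells just outside had 10895 CPM in the 2-week knockout, 4740 in the 3-week knockout and 16094 in the control. Cells on both sides of the threshold thus carried this fibroblast transcript.

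**Figure D1:**
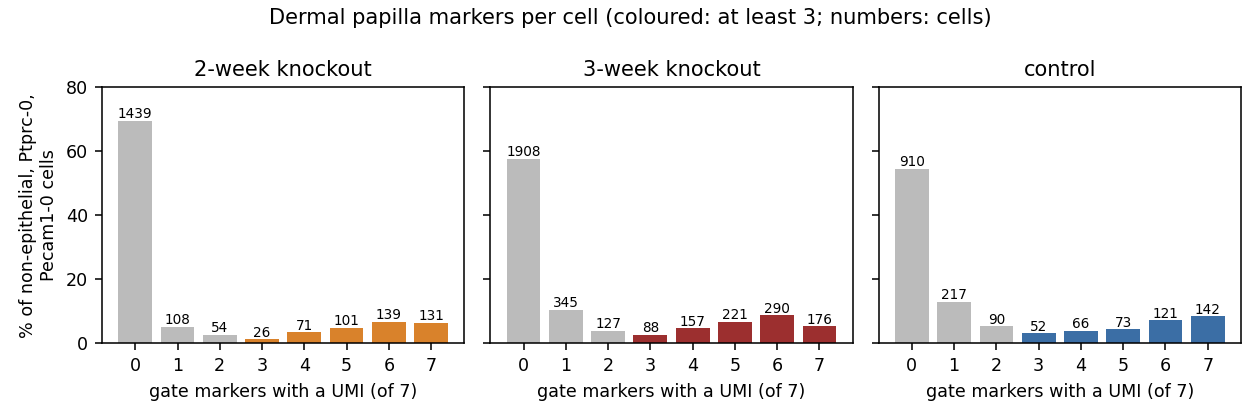
Percent of non-epithelial, Ptprc-negative and Pecam1-negative cells (y axis) by number of gate genes with at least 1 UMI (x axis, 0 to 7) in each library, with the number of cells above each bar. Coloured bars are the dermal papilla-like cells. Each library has a peak at 0 and a lower one at 6 or 7 genes.

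The levels of the gate genes are set beside those of other fibroblasts of the same library, which were chosen to have at most 1 gate gene and at least 4 of 6 fibroblast genes with a UMI, so the rule fixed this difference (69 cells in the 2-week knockout, 591 in the 3-week knockout and 279 in the control). Crabp1, a retinoic acid-binding protein, had 2858 CPM in the 2-week knockout, 3138 in the 3-week knockout and 1921 in the control, against 217, 12.5 and 44.4 CPM in other fibroblasts of the same 3 libraries. Slc26a7, an anion transporter, had 1278 CPM in the 2-week knockout, 1125 in the 3-week knockout and 957 in the control, against 0, 0 and 0.440 CPM in other fibroblasts, in the same order of libraries. Spon1, the matrix protein spondin 1, had 590 CPM in the 2-week knockout, 531 in the 3-week knockout and 509 in the control, against 5.63, 5.34 and 14.1 CPM in other fibroblasts, in the same order of libraries. Slc26a7 and Spon1 were low or at 0 in the other fibroblasts of every library, and Crabp1 was highest there in the 2-week knockout, which had the fewest such cells. Notum, an enzyme that inactivates Wnt ligands by removing their lipid, had 424 CPM in the 2-week knockout, 491 in the 3-week knockout and 274 in the control, against 2.81, 2.94 and 0.440 CPM in other fibroblasts, in the same order of libraries. In epithelial cells, which should lack these genes, Crabp1 had 12.5 CPM in the 2-week knockout, 20.4 in the 3-week knockout and 9.05 in the control. Slc26a7 had 2.51 CPM in epithelial cells of the 2-week knockout, 5.99 in those of the 3-week knockout and 3.97 in those of the control. The median depth was 4191 UMIs per dermal papilla-like cell in the 2-week knockout, 3809 in the 3-week knockout and 4811 in the control, against 8177, 11026 and 11972 UMIs per epithelial cell of the same 3 libraries.

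Beside the label stand 23 dermal papilla genes that the gate did not use. Of these, 9 had at least 50 CPM in dermal papilla-like cells or in other fibroblasts of every library and were compared. Of the 9, 7 were at least 2-fold higher in all 3 libraries: Lef1, Trps1, Enpp2, Bmp4, Wif1, Prdm1 and Rspo3. A gene under 50 CPM in other fibroblasts, such as Lef1, could enter only by a higher level in dermal papilla-like cells. The count is thus a description and does not test the label, and the rest of the 23 genes were too low to compare. Over all 2840 genes compared, 136 (4.79%) passed 2-fold upward in all 3 libraries and 216 (7.61%) passed it downward. Lef1, a transcription factor of Wnt signalling, had 262, 252 and 154 CPM in dermal papilla-like cells of the 2-week knockout, the 3-week knockout and the control, and 8.44, 1.33 and 2.64 CPM in other fibroblasts. Corin, a protease used as a marker of the dermal papilla, was low at 18.7 CPM in the 2-week knockout, 15.4 in the 3-week knockout and 15.8 in the control but had no UMI in other fibroblasts. Hhip, a hedgehog-binding protein, had 47.4 CPM in the 2-week knockout, 43.5 in the 3-week knockout and 37.1 in the control, against 0, 0.267 and 0.879 CPM in other fibroblasts, in the same order of libraries. Vcan and Fgf7 were the 2 compared genes that did not pass 2-fold in every library.

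Of the 136 higher genes 7 were the gate genes, whose place follows from the rule, and 129 were not. The largest minimum ratio over the 3 libraries outside the gate was that of Igfbp3, a carrier of insulin-like growth factors. Igfbp3 had 5062, 3794 and 3776 CPM in dermal papilla-like cells of the 2-week knockout, the 3-week knockout and the control, against 59.1, 30.2 and 49.7 CPM in other fibroblasts. Prlr, the prolactin receptor, had 835 CPM in the 2-week knockout, 770 in the 3-week knockout and 708 in the control, against 5.63, 10.9 and 15.4 CPM in other fibroblasts, in the same order of libraries. The transcription factors Runx3 and Rorb were also among the 20 genes of largest minimum ratio. Runx3 had 277 CPM in the 2-week knockout, 276 in the 3-week knockout and 250 in the control, against 11.3, 11.5 and 18.9 CPM in other fibroblasts, in the same order of libraries. The pigment-type switching ligand nonagouti, the collagen Col23a1, the protease inhibitor Serpine2, the apoptosis inhibitor Bcl2 and the prostacyclin receptor Ptgir were there as well. At the other end stood Pi16, Cd34, Ccl11 and Ccl7. Pi16 had 16.3 CPM in dermal papilla-like cells of the 2-week knockout, 52.03 in those of the 3-week knockout and 34.9 in those of the control, against 340, 695 and 433 CPM in other fibroblasts, in the same order of libraries. Of 19 fibrillar collagen, elastic fibre and small proteoglycan genes compared, 13 were at least 2-fold lower in all 3 libraries and none was higher. Part of this follows from the rule, which chose the other fibroblasts by UMIs of Col1a1, Col1a2, Col3a1, Dcn, Lum and Pdgfra. Col1a1, Col3a1, Dcn and Lum are members of this list, so the count is a description. Of 16 basement membrane and niche matrix genes 4 were higher and none was lower.

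**Figure D2:**
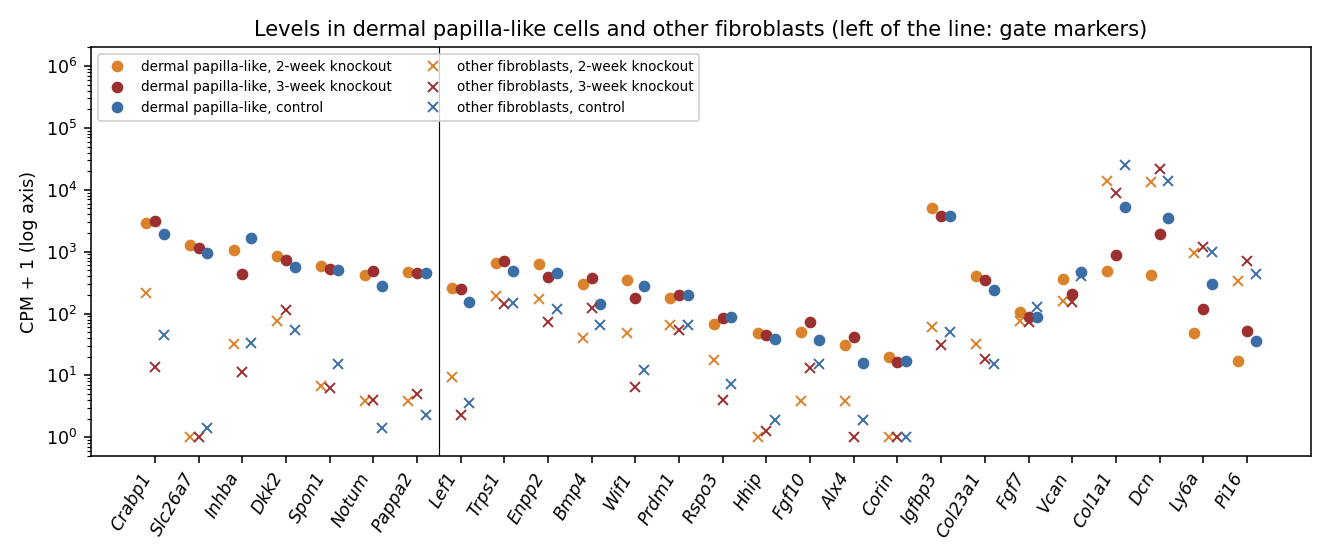
Level (CPM + 1, log axis) of 26 genes in dermal papilla-like cells (filled points) and other fibroblasts (crosses) of each library. The 7 gate genes are left of the line. Lef1, Corin, Hhip and Igfbp3 sit far above the crosses, and Col1a1, Dcn, Ly6a and Pi16 sit below them. Col1a1 and Dcn are among the genes by which the other fibroblasts were chosen.

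The gated cells were not all alike. Clustered alone, the 1854 cells fell into 7 groups, and markers of another cell type were among the 10 leading genes of 3 of them. A group of 120 cells was led by Igfbp5, Igfbp2, Col1a1, Lum, Dcn and Ly6a, genes of ordinary fibroblasts, with 13955 CPM of Col1a1 and 1.53 CPM of Corin. A group of 100 cells was led by Acta2, Tagln and Cilp, the first 2 of them contractile genes, and a group of 49 cells by the keratinocyte genes Krtdap, Krt1 and Krt10. The other 4 groups, 1585 cells, are called the core below: 425 cells in the 2-week knockout, 792 in the 3-week knockout and 368 in the control. Col1a1 in core cells had 63.1 CPM in the 2-week knockout, 51.5 in the 3-week knockout and 77.6 in the control. The core was chosen after these leading genes were seen. The cells outside it were 9.19% of the gated cells in the 2-week knockout (95% interval 6.73 to 12.2), 15.02% in the 3-week knockout (12.8 to 17.5) and 18.9% in the control (15.4 to 22.9).

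The core cells of each library were spread over these groups in different proportions. The 2-week knockout had 198 cells in a group led by Inhba, Oaf, Stc1, Dll1 and Cd44 and 184 in a group led by Fos, Hspa1a, Rasd1 and Egr1. The 3-week knockout had 432 cells in a group led by Wnt16, Srcin1, Wnt10a and Wnt6 and 299 in the Fos-led group. The control had 284 cells in the Inhba-led group and 59 in the Fos-led group. A group that is mostly 1 library may be that library and not a cell type, so the libraries are compared below over all gated cells and over the whole core.

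The share of dermal papilla-like cells was 4.74% of filtered cells in the 2-week knockout (4.33 to 5.18), 9.33% in the 3-week knockout (8.76 to 9.91) and 9.04% in the control (8.26 to 9.87). Of the non-epithelial, Ptprc-negative and Pecam1-negative cells they were 22.6% in the 2-week knockout, 28.1% in the 3-week knockout and 27.2% in the control. Cells with at least 3000 UMIs were also thinned to 3000 UMIs before the gate. Shallower cells were left out here and wherever thinning is named below. Of the dermal papilla-like cells 67 (14.3%) were shallower in the 2-week knockout, 219 (23.5%) in the 3-week knockout and 35 (7.71%) in the control. The shares of the filtered cells that remained were 4.43% in the 2-week knockout, 7.65% in the 3-week knockout and 8.02% in the control. A share of dissociated cells depends on how much of each other tissue layer was released, which cannot be told apart from a change in cell number.

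The depth was 2826668 UMIs over the dermal papilla-like cells of the 2-week knockout, 4804665 in the 3-week knockout and 2720186 in the control. Ribosomal protein genes held 15.7% of these UMIs in the 2-week knockout, 15.9% in the 3-week knockout and 11.0% in the control. The nuclear RNA Malat1 held 10.3% in the 2-week knockout, 8.43% in the 3-week knockout and 7.34% in the control. Gm42418, a gene model that overlaps ribosomal RNA, held 3.54% in the 2-week knockout, 2.89% in the 3-week knockout and 8.56% in the control. These shares differ between the knockout libraries and the control, and counts with totals that leave these classes out are given beside the main counts below. Summed CPM of melanocyte, endothelial and skeletal muscle markers did not exceed 14.7 CPM in core cells of any library. Pericyte markers summed to 235, 215 and 260 CPM in core cells of the 2-week knockout, the 3-week knockout and the control. Reticular fibroblast markers summed to 125, 128 and 161 CPM and sebocyte markers to 165, 147 and 166 CPM, in the same order of libraries. Tendon-like fibroblast markers summed to 47.0, 33.7 and 53.3 CPM and dermal sheath or smooth muscle markers to 11.2, 22.7 and 28.3 CPM there. Immune markers summed to 2.01, 57.9 and 18.1 CPM in core cells of the 2-week knockout, the 3-week knockout and the control, with Ptprc at 0 by the gate, and Schwann markers to 3.21, 108 and 10.8 CPM. Over all gated cells the 10 keratinocyte markers summed to 1002 CPM in the 2-week knockout, 3414 in the 3-week knockout and 837 in the control. Over the core they summed to 475 CPM in the 2-week knockout, 1036 in the 3-week knockout and 418 in the control. No cell barcode of a dermal papilla-like cell was shared between libraries.

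Piezo1 itself (chromosome 8 from 122481698 to 122551329, minus strand) had 57.3 CPM in dermal papilla-like cells of the 2-week knockout and 42.9 CPM in those of the 3-week knockout, against 82.3 CPM in the control. It was 1.44-fold lower in the 2-week knockout (1.17 to 1.77) and 1.92-fold lower in the 3-week knockout (1.58 to 2.33). Epithelial cells, the target of the driver, had 29.7, 16.2 and 38.6 CPM of Piezo1 in the 2-week knockout, the 3-week knockout and the control. Both knockout libraries were thus below the control in the targeted cells and in the dermal papilla-like cells, which by the label of the knockout are not its target. In core cells Piezo1 had 59.4 and 49.2 CPM in the 2-week and 3-week knockouts, against 99.2 CPM in the control. The floxed exons are not given in the labels and the libraries read transcript 3′ ends, so these counts do not check the deletion.

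Over all gated cells, 2-fold higher levels than in the control were found in the 2-week knockout for 34 of 2950 ranked genes (1.15%), and 2-fold lower levels for 129 (4.37%). In the 3-week knockout the counts were 63 of 3052 genes higher (2.06%) and 120 lower (3.93%). To be ranked, a gene needed 100 UMIs over the compared libraries, 50 CPM in the higher library and a level there not below that of the highest other cell class divided by 5. In core cells the counts were 28 higher (0.983%) and 34 lower (1.19%) of 2847 genes at 2 weeks, and 53 higher (1.78%) and 100 lower (3.35%) of 2982 genes at 3 weeks. The count of lower genes at 2 weeks was thus more than 1.5 times smaller without the 269 cells outside the core. With totals that leave out ribosomal, mitochondrial, Malat1 and Gm42418 UMIs, 53 genes were higher and 157 lower at 2 weeks, and 103 higher and 145 lower at 3 weeks. With cells thinned to 3000 UMIs before the gate, 27 were higher and 33 lower at 2 weeks, and 77 higher and 85 lower at 3 weeks. With equal weight per cell, 26 were higher and 57 lower at 2 weeks. The size of the split at 2 weeks thus depends on the scaling, the depth and the cells used.

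Genes of ordinary fibroblasts were among the lowest ratios. Cdh4, Igfbp2, Igfbp5, Col1a1, Sulf2, Lum, Eln and Dcn all stood among the 10 genes of lowest ratio at 2 weeks over all gated cells. Col1a1 had 493 CPM in the 2-week knockout and 880 CPM in the 3-week knockout, against 5207 CPM in the control, where 58 of 454 gated cells were in the Col1a1-led group, compared with 13 of 468 and 49 of 932. In core cells Col1a1 had 63.1 CPM at 2 weeks and 51.5 CPM at 3 weeks, against 77.6 CPM in the control. Of 16 ranked genes of the fibrillar and proteoglycan matrix list, 15 were at least 1.5-fold lower at 2 weeks over all gated cells, with a median log2 ratio of -1.96, where 308 of all ranked genes (10.4%) were that much lower and the median of all genes was -0.06. At 3 weeks 12 of 17 were lower, with a median of -0.95, where 329 of all genes (10.8%) were lower and the median of all genes was -0.03. In core cells 5 members were ranked and none was 1.5-fold higher or lower at either time, at medians of -0.04 at 2 weeks and 0.26 at 3 weeks. Most members called over all gated cells were thus too low in the core to be compared there. Dcn, not ranked in the core, had 22.1 CPM in core cells of the 2-week knockout and 89.6 CPM in those of the 3-week knockout, against 57.2 CPM in the control, and was 2.59-fold lower at 2 weeks (1.85 to 3.67). With cells thinned to 3000 UMIs before the gate, 0 members were lower at either time. How many members were still ranked after thinning is not given, so this 0 does not show that the difference was gone. With equal weight per cell, 7 members were lower at 2 weeks and 4 at 3 weeks.

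**Figure D3:**
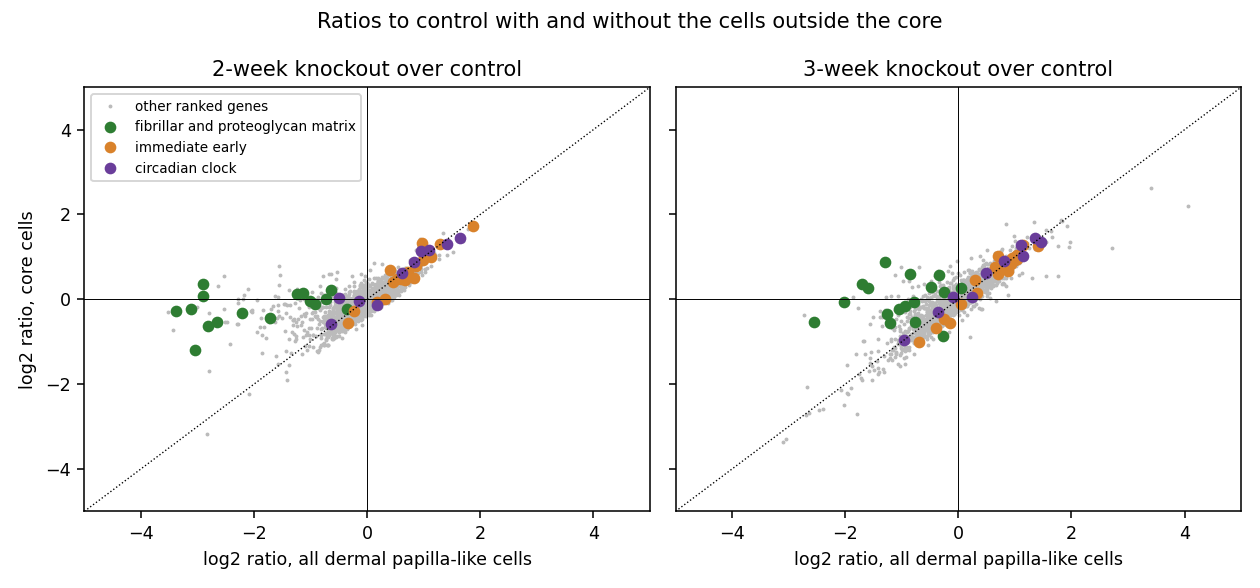
Log2 ratio over control of each ranked gene in all dermal papilla-like cells (x axis) and in core cells (y axis), at 2 weeks (left) and 3 weeks (right). Immediate early and clock genes lie along the dotted line of equal ratios. Fibrillar matrix genes have mostly negative x values, and those ranked in the core lie near 0 on the y axis. Dcn, not ranked in the core, lies below 0 on the y axis at 2 weeks and above 0 at 3 weeks.

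Slc15a2, a peptide transporter, was also among the 10 lowest at 2 weeks, with 4.60 CPM in the 2-week knockout and 52.4 CPM in the 3-week knockout, against 63.6 CPM in the control. It was 13.8-fold lower at 2 weeks (7.88 to 26.5), and it was also lower in epithelial cells of that library (log2 ratio -2.51). Of the 10 lowest at 3 weeks, Tpm3-rs7, Bc1, Hmga1b, Ftl1-ps1, Wdr89 and Usp50 were lower in other fibroblasts and epithelial cells too, with log2 ratios between -1.38 and -3.05. Tpm3-rs7, Hmga1b and Ftl1-ps1 have near-identical copies elsewhere in the genome, so their counts are uncertain. Of the 10 highest at 3 weeks, Krt77, Dsg1a, Krt80 and Eppk1 are keratinocyte genes, and Fam25c and Gltp had 767 and 178 CPM in epithelial cells of that library, against 403 and 111 CPM in its dermal papilla-like cells. Krt77 had 63.7 CPM in the 2-week knockout and 736 CPM in the 3-week knockout, against 39.3 CPM in the control, and 30.9, 176 and 34.6 CPM in core cells. Fdps, an enzyme of sterol synthesis, had 32.2 CPM at 2 weeks and 124 CPM at 3 weeks, against 33.1 CPM in the control, and Adrm1, a proteasome ubiquitin receptor, had 27.9 CPM at 2 weeks and 50.4 CPM at 3 weeks, against 10.7 CPM in the control. Adrm1 was higher at 3 weeks in epithelial cells as well (log2 ratio 1.85). Srcin1, a regulator of the Src kinase, had 117 and 222 CPM in the 2-week and 3-week knockouts, against 54.8 CPM in the control. The chemokine gene Ccl2, among the 10 lowest at 3 weeks, had 64.7 CPM at 2 weeks and 68.1 CPM at 3 weeks, against 478 CPM in the control, but 61.4 CPM at 2 weeks and 58.5 CPM at 3 weeks, against 77.6 CPM in the control, in core cells.

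Circadian clock genes differed from the control alike in all gated cells and in the core. In this clock CLOCK and its partner ARNTL switch on genes through E-box sites, among them the repressor genes of the Per and Cry families and the nuclear receptor genes Nr1d1 and Nr1d2, whose products in turn repress Arntl. Of 19 clock genes 10 were ranked. At 2 weeks 6 were at least 1.5-fold higher than in the control, where 155 of all ranked genes (5.25%) were, and only Arntl was that much lower, with a median log2 ratio of 0.73. At 3 weeks 5 were higher, where 234 of all ranked genes (7.67%) were, and again only Arntl was lower, with a median of 0.64. In core cells 6 were higher and 1 lower at each time (medians 0.76 at 2 weeks and 0.75 at 3 weeks), where, in the same order of time, 119 (4.18%) and 250 (8.38%) of all core genes were higher and 208 (7.31%) and 317 (10.6%) lower. With cells thinned to 3000 UMIs 3 clock genes were higher at 2 weeks and 5 at 3 weeks, and ranking from 100 CPM left 3 at each time. How many clock genes were still ranked under these settings is not given. Dermal papilla-like cells thus had the same 6 genes above the control at both times in the core: Per1, Cry2, Nr1d1, Nr1d2, Tef and Bhlhe40.

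Promoter windows of some clock genes that passed 1.5-fold are shown, a single window per gene. They were picked because each holds at least 1 of the motifs marked below. They run from 250 bases before to 50 after each RefSeq start on the GRCm38.p6 build, written 5′ to 3′ on the strand of the gene. Capitals mark the E-box CACGTG, which reads the same on both strands, and the ROR element AGGTCA or TGACCT, the core of the sites that NR1D1 and NR1D2 bind. The Per1 window is chr11:69098699-69098998 on the plus strand, the Tef window chr15:81802423-81802722 on the plus strand, the Nr1d2 window chr14:18239057-18239356 on the minus strand and the Arntl window chr7:113207261-113207560 on the plus strand.
Per1: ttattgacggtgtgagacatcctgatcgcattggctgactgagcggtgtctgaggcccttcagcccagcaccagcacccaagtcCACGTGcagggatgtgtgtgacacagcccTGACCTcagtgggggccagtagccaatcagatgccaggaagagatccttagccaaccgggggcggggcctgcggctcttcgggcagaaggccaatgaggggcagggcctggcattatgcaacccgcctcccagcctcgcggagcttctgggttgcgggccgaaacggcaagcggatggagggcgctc
Tef: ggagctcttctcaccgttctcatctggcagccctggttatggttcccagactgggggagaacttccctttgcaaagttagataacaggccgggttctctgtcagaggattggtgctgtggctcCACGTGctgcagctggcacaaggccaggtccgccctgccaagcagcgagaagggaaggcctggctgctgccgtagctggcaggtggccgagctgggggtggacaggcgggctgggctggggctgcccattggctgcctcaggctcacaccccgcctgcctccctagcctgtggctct
Nr1d2: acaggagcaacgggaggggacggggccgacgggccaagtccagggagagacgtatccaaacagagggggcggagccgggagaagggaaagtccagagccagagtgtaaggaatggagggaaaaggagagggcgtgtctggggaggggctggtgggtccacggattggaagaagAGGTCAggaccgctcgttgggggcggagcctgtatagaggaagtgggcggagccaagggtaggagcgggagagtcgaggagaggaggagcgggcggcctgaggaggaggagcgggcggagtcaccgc
Arntl: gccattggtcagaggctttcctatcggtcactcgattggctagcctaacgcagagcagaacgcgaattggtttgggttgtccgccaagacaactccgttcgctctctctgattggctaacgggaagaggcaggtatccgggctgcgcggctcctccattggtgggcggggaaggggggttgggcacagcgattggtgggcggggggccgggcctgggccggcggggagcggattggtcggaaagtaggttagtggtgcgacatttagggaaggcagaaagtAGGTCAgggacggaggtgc
Of the 7 clock genes past 1.5-fold, 6 had entries, with 9 start windows in all. An E-box was in 3 of these windows, of Per1 and Tef, and a ROR element in 3, of Per1, Nr1d2 and Arntl, with no overlap between the motifs. The windows of Nr1d1 and Cry2, the other Per1 window and the other Arntl window held neither motif. Of all 32851 promoter windows of 300 bases, 7.15% held the E-box and 16.3% the ROR element. These matches are letters in a window and not measured sites.

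Nr1d1 had 303 CPM in the 2-week knockout and 313 CPM in the 3-week knockout, against 110 CPM in the control. It was 2.75-fold higher at 2 weeks (2.40 to 3.14) and 2.84-fold higher at 3 weeks (2.50 to 3.22). Bhlhe40, a repressor of the same loop, had 899 and 628 CPM in the 2-week and 3-week knockouts, against 283 CPM in the control. Both knockout libraries lay well above the control for these 2 repressors. Tef, a transcription factor of the clock output, had 50.9 and 62.02 CPM in the 2-week and 3-week knockouts, against 21.3 CPM in the control. Per1 had 54.5 CPM at 2 weeks and 61.4 CPM at 3 weeks, against 25.7 CPM in the control, and Nr1d2 had 134 CPM at 2 weeks and 132 CPM at 3 weeks, against 73.2 CPM in the control. Arntl ran the other way, with 33.6 CPM in the 2-week knockout and 25.6 CPM in the 3-week knockout, against 54.8 CPM in the control, or 1.63-fold lower (1.25 to 2.13) and 2.14-fold lower (1.67 to 2.74). Clock had 75, 78.3 and 83.5 CPM in the 2-week knockout, the 3-week knockout and the control, and neither ratio passed 1.5-fold. The median log2 ratio of the clock list was 0.59 and 0.53 at 2 and 3 weeks in other fibroblasts, and 0.30 and 0.06 in epithelial cells. In immune cells, which had Ptprc UMIs, this median was -0.29 and 0.01 at 2 and 3 weeks. In endothelial cells, which had Pecam1 UMIs, it was -0.16 and -0.06. The hour at which skin was taken is not given in the sources used here.

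Immediate early genes, which cells switch on within minutes of a stimulus, were another group with many higher members in both knockouts. Of 21 such genes 20 were ranked, and 13 were at least 1.5-fold higher and none lower at 2 weeks (median log2 ratio 0.71), against 5.25% higher among all ranked genes. At 3 weeks 13 were higher, against 7.67% of all ranked genes, and 1, Fosl1, was lower (median 0.71). With cells thinned to 3000 UMIs 8 were higher at 2 weeks and 10 at 3 weeks, and the number still ranked is not given. In core cells 11 were higher and none lower at 2 weeks, and 13 higher and 2 lower at 3 weeks, with medians of 0.62 and 0.71, against 4.18% and 8.38% higher among all core genes. Fos, a subunit of the AP-1 transcription factor, had 8440 CPM in the 2-week knockout and 6116 CPM in the 3-week knockout, against 2310 CPM in the control. It was 3.65-fold higher at 2 weeks (3.55 to 3.76) and 2.65-fold higher at 3 weeks (2.58 to 2.72). Nr4a1, an orphan nuclear receptor, had 946 and 789 CPM in the 2-week and 3-week knockouts, against 384 CPM in the control, and Atf3, a stress-induced transcription factor, had 1087 CPM at 2 weeks and 1224 CPM at 3 weeks, against 554 CPM in the control. The list was also higher in other fibroblasts (medians 0.86 at 2 weeks and 0.67 at 3 weeks) and in epithelial cells (0.46 at 2 weeks and 0.36 at 3 weeks). Of the 10 genes of largest ratio at 2 weeks, Fos, Bhlhe40, Nr1d1 and the Notch target Hes1 belonged to fixed lists. Slc7a2, a transporter of cationic amino acids, had 67.9 and 56.8 CPM in the 2-week and 3-week knockouts, against 16.2 CPM in the control. Rasd1, a Ras-like protein induced by glucocorticoids, had 627 CPM at 2 weeks and 598 CPM at 3 weeks, against 232 CPM in the control, and the phosphatase gene Dusp2 had 75.4 CPM at 2 weeks and 17.1 CPM at 3 weeks, against 19.9 CPM in the control. The other 3 genes were Cavin2, Ier5l and Ndst3. Among heat shock genes, 3 of 10 ranked members were higher at 2 weeks and 4 of 8 at 3 weeks, and none was lower, against 5.25% and 7.67% higher among all ranked genes. In core cells 3 of 9 were higher at 2 weeks and 2 of 7 at 3 weeks. The chaperone gene Hspa8 had 2759 and 2862 CPM in the 2-week and 3-week knockouts, against 1737 CPM in the control.

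**Figure D4:**
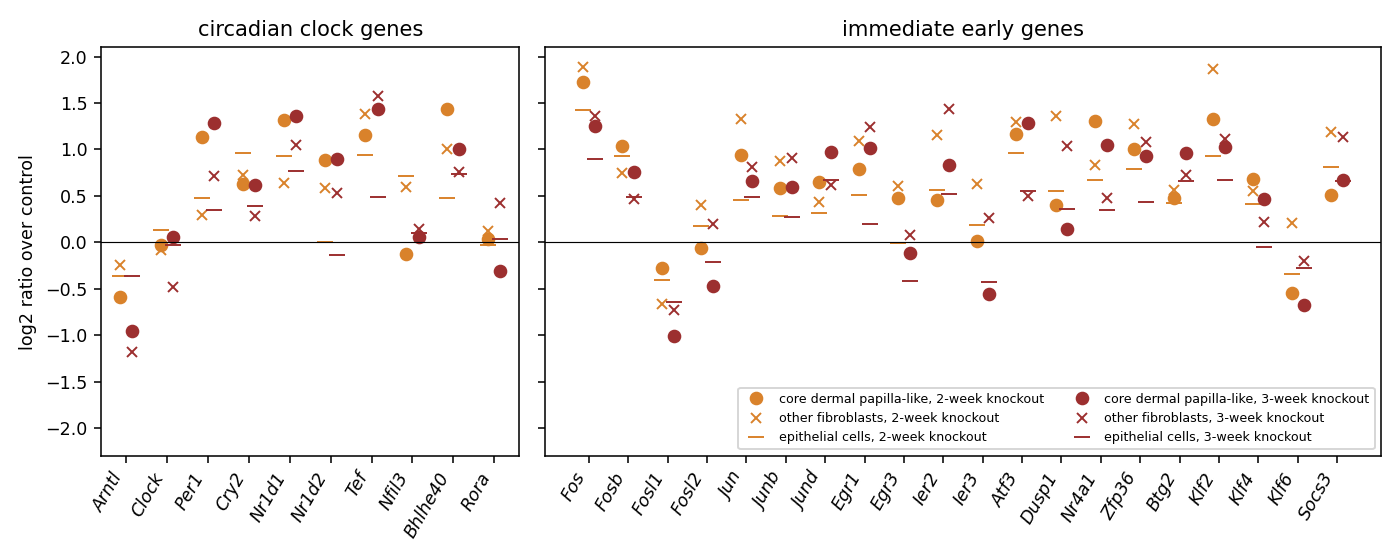
Log2 ratio over control (y axis) of ranked clock genes (left) and immediate early genes (right) in core dermal papilla-like cells (circles), other fibroblasts (crosses) and epithelial cells (bars), at 2 weeks (orange) and 3 weeks (red). Nr1d1, Tef and Bhlhe40 lie above 0 in all 3 cell groups and Arntl below it.

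Within a library the Fos level varied widely from cell to cell. Core cells thinned to 3000 UMIs, with 65, 210 and 35 shallower cells of the 2-week knockout, the 3-week knockout and the control left out, had at least 10 Fos UMIs in 42.5% of cells in the 2-week knockout, 33.5% in the 3-week knockout and 14.7% in the control. These bins were chosen after the values were seen. Cells with 0 or 1 Fos UMI were 40.3% in the 2-week knockout, 36.1% in the 3-week knockout and 71.5% in the control (145, 210 and 238 cells). Genes differed between these bins in the same library: in cells with at least 10 Fos UMIs Inhba had 327 CPM in the 2-week knockout, 169 in the 3-week knockout and 231 in the control. In cells with 0 or 1 it had 2379 CPM in the 2-week knockout, 871 in the 3-week knockout and 3129 in the control. At 2 weeks Inhba was thus nearer the control in these cells than over all core cells. In cells with at least 10 it was above the control, with overlapping intervals. Stc1 with 0 or 1 Fos UMI had 244 and 52.4 CPM at 2 and 3 weeks, against 244 CPM in the control. With 2 to 9 it had 75.3 and 47.1 CPM, against 174 CPM. With at least 10 it had 19.6 and 11.97 CPM, against 47.6 CPM, from at most 9 UMIs. How far the bin shares account for this was not tested. Among cells with 0 or 1 Fos UMI, Nr1d1 had 244 CPM in the 2-week knockout and 257 CPM in the 3-week knockout, against 98.0 CPM in the control. Bhlhe40 in these cells had 379 CPM in the 2-week knockout and 295 CPM in the 3-week knockout, against 214 CPM in the control. In cells with at least 10 Fos UMIs Bhlhe40 had 1340 CPM in the 2-week knockout and 1041 CPM in the 3-week knockout, against 1014 CPM in the control. The differences of Bhlhe40 from the control were thus smaller within these bins than over all core cells. Bmp4 in the cells with 0 or 1 Fos UMI had 129 and 251 CPM at 2 and 3 weeks, against 92.4 CPM in the control. Wnt6 in them had 13.8 and 81.0 CPM at 2 and 3 weeks, against 25.2 CPM in the control. With at least 10 Fos UMIs, Bmp4 had 540 and 554 CPM at 2 and 3 weeks, against 456 CPM in the control. The intervals of these last Bmp4 values overlapped. Wnt6 there had 39.2 and 90.6 CPM, against 20.4 CPM in the control, the last from 3 UMIs.

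Activin and BMP ligands were next. Inhba, which encodes the beta-A subunit of activin, is a gate gene, so its level is conditioned by the rule. It had 1045 CPM in the 2-week knockout and 430 CPM in the 3-week knockout, against 1689 CPM in the control. Inhba was 1.62-fold lower at 2 weeks (1.54 to 1.69) and 3.93-fold lower at 3 weeks (3.73 to 4.14), and in core cells 2.12-fold and 4.65-fold lower. In cells gated without it, on at least 3 of the other 6 genes, Inhba had 1052 CPM in the 2-week knockout and 433 CPM in the 3-week knockout, against 1890 CPM in the control, or 1.80-fold lower (1.71 to 1.88) and 4.36-fold lower (4.13 to 4.60). This gate was added after the results were seen. A core cell thinned to 3000 UMIs held a median of 1, 0 and 3 Inhba UMIs in the 2-week knockout, the 3-week knockout and the control. The beta-B subunit gene Inhbb ran the other way, with 161 and 139 CPM in the 2-week and 3-week knockouts, against 74.99 CPM in the control. Bmp4, a ligand that holds hair follicle stem cells at rest, had 304 CPM in the 2-week knockout and 373 CPM in the 3-week knockout, against 141 CPM in the control, or 2.16-fold higher (1.91 to 2.44) and 2.65-fold higher (2.37 to 2.96). The BMP target Id3 had 572 and 489 CPM in the 2-week and 3-week knockouts, against 296 CPM in the control. At 2 weeks Id3 was also higher in other fibroblasts (log2 ratio 1.49), epithelial (1.18), immune (0.87) and endothelial cells (0.45). Of the 12 activin, BMP and TGF-beta ligand genes 8 were ranked at 2 weeks, with 4 higher (Bmp4, Gdf10, Inhbb and Tgfb1) and Inhba lower. At 3 weeks 7 were ranked, with 4 higher (Bmp4, Bmp7, Gdf10 and Inhbb) and Inhba lower. Of all ranked genes 5.25% were higher and 10.4% lower at 2 weeks, and 7.67% higher and 10.8% lower at 3 weeks. In core cells Bmp4, Gdf10, Inhbb and Tgfb1 of 8 were higher at 2 weeks and Bmp4 and Gdf10 of 7 at 3 weeks, with Inhba and Tgfb2 lower at both times. Tgfb2 passed 1.5-fold only in core cells, with 73.5 and 59.3 CPM in the 2-week and 3-week knockouts, against 115 CPM in the control. Of 9 ranked receptors and targets 2 were higher and 2 lower at 2 weeks, and 2 higher and 1 lower at 3 weeks. The antagonist gene Fstl1 had 129 CPM in the 2-week knockout and 149 CPM in the 3-week knockout, against 330 CPM in the control, over all gated cells, and in core cells the 1 ranked antagonist did not pass 1.5-fold.

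Wnt genes were called at both times over all gated cells and mainly at 3 weeks in core cells. Wnt6 had 37.9 CPM in the 2-week knockout and 70.8 CPM in the 3-week knockout, against 16.2 CPM in the control, or 2.34-fold higher (1.63 to 3.40), at a level too low for ranking, and 4.37-fold higher (3.19 to 6.13). Wnt10a had 41.7 and 81.8 CPM in the 2-week and 3-week knockouts, against 31.6 CPM in the control. The Wnt-dependent transcription factor gene Tcf7 had 38.9 CPM at 2 weeks and 67.9 CPM at 3 weeks, against 18.4 CPM in the control. The 3-week knockout was the highest library for all 3 of these genes. Of 17 Wnt and R-spondin genes, 3 were ranked at 2 weeks, with none higher and 2 lower, and 5 at 3 weeks, with 2 higher and none lower, and in core cells Rspo1 was the third that was higher at 3 weeks. Among 12 secreted inhibitors 5 were ranked at each time, with Dkk2 and Notum higher at 2 weeks, and Notum higher and Wif1 lower at 3 weeks. Dkk2 and Notum are gate genes, so their levels are conditioned by the rule. In cells gated without the gene itself, Dkk2 was 1.46-fold higher at 2 weeks (1.37 to 1.56), short of 1.5-fold. Notum gated in this way was 1.53-fold higher at 2 weeks (1.39 to 1.68) and 1.80-fold at 3 weeks (1.65 to 1.96). In core cells none of the 5 passed 1.5-fold at 2 weeks, and Notum and Apcdd1 were higher and Wif1 lower at 3 weeks. Notum was 1.55-fold higher at 2 weeks (1.41 to 1.70) and 1.79-fold higher at 3 weeks (1.65 to 1.95), and 1.18-fold and 1.57-fold higher in core cells. Dkk2, a modulator of Wnt receptors, had 865 and 722 CPM in the 2-week and 3-week knockouts, against 559 CPM in the control, and 894, 825 and 718 CPM in core cells of the 2-week knockout, the 3-week knockout and the control. Wif1, a secreted protein that binds Wnt ligands, had 353 CPM in the 2-week knockout and 180 CPM in the 3-week knockout, against 279 CPM in the control, and was 1.54-fold lower at 3 weeks (1.40 to 1.70). Lef1 was 1.70-fold higher at 2 weeks and 1.63-fold at 3 weeks over all gated cells, and 1.27-fold and 1.40-fold in core cells. Of 20 receptors and targets 5 were ranked at 2 weeks, with 1 higher and 1 lower, and 6 at 3 weeks, with 2 higher. In core cells none of 4 passed 1.5-fold at 2 weeks, and 1 of 5 was higher and 1 lower at 3 weeks. Over these 3 lists the shares of all ranked genes to read beside the counts are those given for the BMP ligands, and in core cells 4.18% higher and 7.31% lower at 2 weeks, and 8.38% higher and 10.6% lower at 3 weeks.

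**Figure D5:**
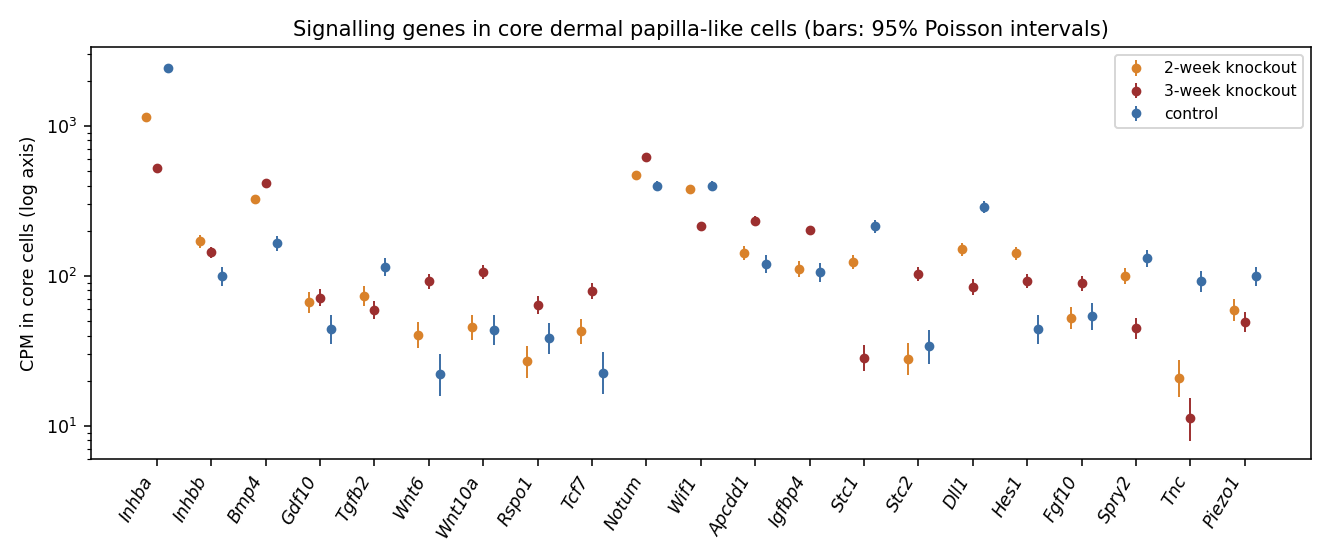
Level (CPM, log axis) of 21 signalling genes in core dermal papilla-like cells of the 2-week knockout, the 3-week knockout and the control, with 95% Poisson intervals. Over all core cells, whatever their Fos level, Inhba, Stc1, Dll1, Tnc and Piezo1 are lower in both knockouts and Bmp4 and Hes1 higher in both. Wnt10a, Stc2 and Igfbp4 stand apart at 3 weeks.

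In the insulin-like growth factor axis, 11 of 13 genes were ranked at 2 weeks, with none higher and 3 lower, and 12 at 3 weeks, with 2 higher and 4 lower, against 10.4% and 10.8% lower among all ranked genes. In core cells Stc1 was the only lower member of 9 at 2 weeks and of 10 at 3 weeks. Pappa2, a gate gene whose protease releases the growth factor from its binding proteins, had 462 CPM in the 2-week knockout and 450 CPM in the 3-week knockout, against 448 CPM in the control. Stc1 and Stc2 encode stanniocalcins, inhibitors of this protease family. Stc1 had 113 and 48.7 CPM in the 2-week and 3-week knockouts, against 182 CPM in the control, and was 3.74-fold lower at 3 weeks (3.19 to 4.38) and 7.49-fold lower there in core cells (5.99 to 9.45). Stc2 had 26.2 CPM at 2 weeks and 85.3 CPM at 3 weeks, against 23.5 CPM in the control, and was 3.63-fold higher at 3 weeks (2.78 to 4.80). The 2 stanniocalcin genes thus differed from the control in opposite directions at 3 weeks. Igfbp4 had 111 and 165 CPM in the 2-week and 3-week knockouts, against 84.9 CPM in the control, whereas Igfbp3 had the values given above and no ratio past 1.5-fold. Igfbp2 and Igfbp5, lower at both times over all gated cells, had at most 1.13 and 4.90 CPM in core cells.

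Notch, FGF and hedgehog genes were represented by few ranked members. The Notch ligand Dll1 had 147 CPM in the 2-week knockout and 74.1 CPM in the 3-week knockout, against 203 CPM in the control, and was 2.74-fold lower at 3 weeks (2.39 to 3.14). The Notch target Hes1 had 164 CPM at 2 weeks and 135 CPM at 3 weeks, against 61.4 CPM in the control, and was 2.67-fold and 2.20-fold higher at 2 and 3 weeks. Hes1 was higher in other fibroblasts as well (log2 ratios 1.60 at 2 weeks and 1.64 at 3 weeks). Of 14 Notch genes 5 and 4 were ranked at 2 and 3 weeks, with 1 higher at each time and 1 lower at 3 weeks. In core cells Hes1 was higher and Dll1 lower at both times, of 5 genes ranked at 2 weeks and 4 at 3 weeks. Fgf10 had 48.5 and 73.3 CPM in the 2-week and 3-week knockouts, against 36.8 CPM in the control, and Spry2, a feedback inhibitor of FGF receptors, had 94.1 CPM at 2 weeks and 41.8 CPM at 3 weeks, against 122 CPM in the control. Of 17 FGF genes 8 were ranked at each time, with none higher and 1 lower (Spred1) at 2 weeks, and 1 higher and 1 lower at 3 weeks. The hedgehog receptor gene Ptch1 had 44.2 and 58.1 CPM in the 2-week and 3-week knockouts, against 29.4 CPM in the control, and was the only hedgehog gene of 4 ranked that passed 1.5-fold at 3 weeks. None of 3 ranked hedgehog genes passed it at 2 weeks. Of all ranked genes 5.25% were higher and 10.4% lower at 2 weeks, and 7.67% higher and 10.8% lower at 3 weeks. In core cells 1 of 9 FGF genes was higher (Spry1) and 1 lower (Spred1) at 2 weeks, and 1 of 8 higher (Fgf10) and 1 lower (Spry2) at 3 weeks. Ptch1 at 3 weeks was the only hedgehog call there. Of all core genes 4.18% were higher and 7.31% lower at 2 weeks, and 8.38% higher and 10.6% lower at 3 weeks.

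Several adhesion and niche matrix genes were lower in both knockouts. Tnc, the matrix glycoprotein tenascin C, had 31.5 CPM in the 2-week knockout and 13.5 CPM in the 3-week knockout, against 91.9 CPM in the control, or 2.92-fold lower (2.28 to 3.76) and 6.79-fold lower (5.15 to 9.07). Thbs1, thrombospondin 1, had 362 and 301 CPM in the 2-week and 3-week knockouts, against 885 CPM in the control. Vcan, the proteoglycan versican of the dermal papilla matrix, had 362 CPM at 2 weeks and 210 CPM at 3 weeks, against 471 CPM in the control, and was 2.24-fold lower at 3 weeks. The adhesion molecule Vcam1 had 34.0 and 37.5 CPM in the 2-week and 3-week knockouts, against 266 CPM in the control, and 35.3 and 25.9 CPM, against 125 CPM, in core cells. Of 17 ranked basement membrane and niche matrix genes 1 was higher and 5 lower at 2 weeks, and none higher and 7 lower at 3 weeks, against 10.4% and 10.8% lower among all ranked genes. In core cells 2 of 14 were lower at 2 weeks and 4 of 14 at 3 weeks, against 7.31% and 10.6% of all core genes. Matrix enzymes and inhibitors had 1 of 11 ranked members higher and 9 lower at 2 weeks and 6 of 10 lower at 3 weeks, but 1 higher and 1 lower of 5, and 1 lower of 4, in core cells.

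Genes linked to mechanical signals were read for Piezo1's sake. Of 10 mechanosensitive channel genes 2 were ranked, and Piezo1 was called lower at 3 weeks over all gated cells and at both times in core cells. YAP and TAZ targets had 2 of 6 ranked members lower at 2 weeks and 1 of 7 lower at 3 weeks, with none higher. Actin and focal adhesion genes had 1 of 14 higher and 1 lower at 2 weeks, and 1 of 14 lower at 3 weeks, against 10.4% and 10.8% lower among all ranked genes. In core cells YAP and TAZ targets had 2 of 4 lower at 2 weeks and 1 of 5 at 3 weeks, and actin and focal adhesion genes 2 of 15 lower at 2 weeks and 4 of 15 at 3 weeks, against 7.31% and 10.6% of all core genes.

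The remaining lists are given by their counts, beside 5.25% higher and 10.4% lower of all ranked genes at 2 weeks and 7.67% higher and 10.8% lower at 3 weeks. Retinoid and nuclear receptor genes had 1 of 7 lower at 2 weeks and 1 of 7 higher at 3 weeks (Crabp1, a gate gene). Glucocorticoid and metallothionein genes had 2 of 9 higher at 2 weeks, and 3 of 8 higher and 1 lower (Errfi1) at 3 weeks. Niche growth factors and chemokines had 4 of 6 lower at each time (Kitl, Il6, Ccl2 and Cxcl1), but in core cells only Cxcl1 of 3 was lower. Interferon and MHC class I genes had 5 of 8 lower at 2 weeks, and 1 higher and 4 lower at 3 weeks, but in core cells only Isg15 of 5 was lower at each time and Irf1 was higher at 3 weeks. Nuclear oxidative phosphorylation genes had 2 of 17 higher at 2 weeks and 4 of 17 at 3 weeks, and cell cycle genes 2 of 5 lower at 2 weeks and none at 3 weeks. The 23 dermal papilla genes outside the gate had 2 of 9 ranked members higher at 2 weeks, and 3 of 10 higher and 2 lower at 3 weeks. Of the lists for other cell types, pericyte genes had 2 ranked members and none past 1.5-fold. Reticular fibroblast genes had 2 of 3 lower at each time, keratinocyte genes 1 ranked and higher member at 3 weeks (Dsp) and sebocyte genes 1 ranked and lower member at 3 weeks (Mgst1).

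A last set of genes was found by applying the rule for named genes to core cells. It falls outside the rule and was chosen after its values were seen. Cd44, the hyaluronan receptor, had 272 CPM in core cells of the 2-week knockout and 177 CPM in those of the 3-week knockout, against 677 CPM in the control, or 2.49-fold and 3.82-fold lower. The interferon-inducible Ifi204 had 20.5 CPM at 2 weeks and 20.4 CPM at 3 weeks, against 115 CPM in the control, and was 5.62-fold lower at 2 weeks (4.11 to 7.79) and 5.63-fold lower at 3 weeks (4.27 to 7.48). Gas6, a ligand of receptor kinases of the TAM family, had 92.8 CPM at 2 weeks and 265 CPM at 3 weeks, against 73.7 CPM in the control, and was 3.59-fold higher at 3 weeks (2.99 to 4.35). The homeobox gene Prrx2 had 80.3 and 94.7 CPM in core cells of the 2-week and 3-week knockouts, against 30.6 CPM in the control. Of these 4 genes, 2 were lower and Prrx2 was higher in both knockouts, and Gas6 stood apart at 3 weeks. Ifi204 was also lower in other fibroblasts (log2 ratios -1.86 at 2 weeks and -0.90 at 3 weeks) and immune cells (-2.68 and -1.25). Its log2 ratios were -0.51 and -0.58 in epithelial cells and -0.12 and -0.23 in endothelial cells. Cd44 at 2 weeks had -0.71 in other fibroblasts, -0.70 in epithelial cells, -0.98 in endothelial cells and -0.03 in immune cells.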

How the data were processed

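Transcripts of single cells of back skin, taken apart with trypsin after collagenase I per the labels' protocols, were counted with the 10x Genomics 3′ v3.1 method. The authors deposited raw UMI counts per gene and cell barcode for 3 libraries, made with Cell Ranger 6.1.2 on mm10 per the submitters' processing notes; the annotation release is not given in the sources used here. The matrices held 11144 barcodes (97960352 UMIs) for the 2-week knockout, 11186 (118610125) for the 3-week knockout and 5621 (62967542) for the control, over 32285 genes.

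Cells were gated as stated in the report. UMIs of a class were summed per library and scaled to CPM, with exact Poisson, Clopper-Pearson and conditional binomial 95% intervals. PCR copies are removed by UMIs, but sums of cells from 1 library are not replicates, so no test was made. Log2 ratios add 5 CPM to both sides, and folds are of plain CPM. Ranked genes also had no cell with over 20% of the UMIs and were not ribosomal protein, mitochondrial, haemoglobin, sex-check or clone-named genes. Named genes were the 10 ranked genes of largest ratio on each side, at least 2-fold, the gate genes, Piezo1 and 2 to 4 members of a list with the largest ratios; against other fibroblasts, the 20 genes of largest and 10 of smallest ratio over the 3 libraries. Not every gene that met the rule is named, and some list members shown for their role did not have the largest ratios. The members and the 37 lists were chosen with earlier results of these data known. Gated cells were clustered with scanpy 1.11.5 and leidenalg 0.10.2 (2000 variable genes, 20 components, 15 neighbours, resolution 0.5). No doublet caller was used for the values given; Scrublet marked 9, 27 and 7 of the dermal papilla-like cells of the 2-week knockout, the 3-week knockout and the control as doublets (284, 394 and 110 of all filtered cells), and leaving them out was tried as an alternative. Other alternatives changed the gate, depth, scaling, offset and filters. Counting and ratio steps were tested on simulated data. Tools were Python 3.11.15, NumPy 2.4.6, pandas 2.3.3 and SciPy 1.17.1.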

Additional observations from a re-analysis of the deposited data

Results flagged for a closer look

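For 3 of the genes named, Dcn, Igfbp2 and Sulf2, the log2 ratio over control ran opposite ways in dermal papilla-like cells and other fibroblasts. They are examples, and other named genes did so too. Tnc had -1.41 at 2 weeks in dermal papilla-like cells and 2.31 in other fibroblasts. Wnt6 had 1.84 at 3 weeks in dermal papilla-like cells and -0.69 in other fibroblasts. Both were low in other fibroblasts, with at most 39.4 CPM of Tnc and 5.63 CPM of Wnt6 in any library. Dcn, the proteoglycan decorin, had -0.85 at 3 weeks in dermal papilla-like cells and 0.62 in other fibroblasts. Igfbp2 had -3.52 at 2 weeks in dermal papilla-like cells and 1.22 in other fibroblasts. Sulf2, an enzyme that trims heparan sulphate, had -0.61 at 3 weeks in dermal papilla-like cells and 0.58 in other fibroblasts. In core cells Dcn had 22.1 CPM in the 2-week knockout and 89.6 CPM in the 3-week knockout, against 57.2 CPM in the control, and Igfbp2 had at most 1.13 CPM. With 1 library per group these differences were not tested.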

How the results depend on the processing

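No paired analysis was possible because each group is 1 library and no result comes from a test; no library could be left out for the same reason. Of 181 values that answer a comparison, recomputed under alternatives, 147 stayed within 1.5 times (counts) or within their interval (shares) and 34 moved. These counts and shares have no sign, so a change of direction could not be seen in them. Of 1575 values of single genes and lists 1163 stayed and 412 moved. A change of direction was looked for only in the ratios of single genes past 2-fold, and none was found. The cause of each move below was not tested. With at least 2 gate genes the shares were 5.29%, 10.6% and 10.8% in the 2-week knockout, the 3-week knockout and the control, and 139 genes were lower than in other fibroblasts. With at least 4 they were 8.45% in the 3-week knockout and 8.005% in the control, 67 genes were 2-fold lower at 2 weeks, and 9 and 6 matrix genes were lower at 2 and 3 weeks. Keratins under 0.1% gave 8.47% in the 3-week knockout. Thinning to 3000 UMIs gave 7.65% in the 3-week knockout and 8.02% in the control, 33 lower genes, 3 higher clock genes and 8 higher immediate early genes at 2 weeks, and 0 lower matrix genes at 2 weeks and 0 at 3 weeks. Cells under 3000 UMIs were left out of this setting. The number of list members still ranked after thinning is not given, and low genes can drop out of the ranking there. Totals without ribosomal, mitochondrial, Malat1 and Gm42418 UMIs gave 53 higher genes at 2 weeks and 103 at 3 weeks. With equal weight per cell 57 genes were lower at 2 weeks, and 7 and 4 matrix genes at 2 and 3 weeks. Ranking from 20 CPM gave 65 and 188 higher genes at 2 and 3 weeks, and 8 higher clock genes at 3 weeks. Ranking from 100 CPM gave 19 and 29 higher and 70 and 74 lower genes at 2 and 3 weeks, and 3 higher clock genes at each time. Core cells gave 34 lower genes at 2 weeks and 0 lower matrix genes at 2 weeks and 0 at 3 weeks. Low genes such as Corin rest on few UMIs, and their ratios are imprecise.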
